A study of Bos taurus with 9 samples.

Results

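Glycolysis, the uptake of glucose before it and the export of lactate after it were followed through 40 genes chosen by name: hexose transporters, the enzymes from hexokinase to lactate dehydrogenase, the enzymes that set fructose 2,6-bisphosphate, the monocarboxylate transporters and the kinases of pyruvate dehydrogenase. Of these 40 genes, 37 had a probe that carries the symbol, all 37 passed the brightness filter, and they stand among 14281 genes tested on the array. GAPDH, PKM and PKM2 were not analysed here. The 37 genes had 54 probes, 53 of them tested, and each gene is given by its brightest probe.

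The cells came from Holstein-Friesian cows at 30, 60, 90 and 120 days after calving. Granulosa cells of the dominant follicle were drawn by ovum pick-up 42 hours after the cows had received prostaglandin, spun down and washed, and no sort of cell types is named in the sources used here. Each of 9 arrays with 2 colours carried amplified RNA of an earlier day in Cy5, for 3 arrays of each day, and RNA of 120 days in Cy3. The labels call the arrays biological replicates and name no animals, so the p-values measure the spread between these samples, which may be partly technical.

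In glycolysis a transporter lets glucose into the cell, hexokinase traps it as glucose 6-phosphate, and phosphofructokinase commits it to breakdown. The triose steps then yield ATP and pyruvate, which lactate dehydrogenase turns into lactate for export or which enters the mitochondrion through pyruvate dehydrogenase. The granulosa layer has no blood vessels of its own before ovulation. Granulosa cells are known to use much glucose and to release lactate and pyruvate, on which the oocyte draws through the cumulus cells.

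Some arrays stood apart. Median signals lay between 127.5 and 450.3 in Cy5 and between 239.6 and 529.7 in Cy3. Of the 37 genes, between 29 (30 days replicate 1) and 37 were above the negative control spots in Cy5, and between 28 (60 days replicate 3) and 37 in Cy3. On 60 days replicate 3 the Cy3 limit set from those controls was 800.2, against 211.8 to 444.8 on the other arrays. Only 20.9% of all probes exceeded it there, which lowers the counts of 120-day spots above background at 60 days. By their Cy3 signals the arrays fell into 3 sets of 3, each with 1 array of every day (r of 0.968 to 0.992 within sets, 0.886 to 0.957 across sets). Set A held replicate 1 of 30 and 60 days with replicate 2 of 90 days, set B replicate 2 of 30 and 60 days with replicate 1 of 90 days, and set C replicate 3 of each day. Each set appeared to carry 1 RNA of 120 days, so that the 3 comparisons with 120 days share their reference RNA. Deviations from the day means correlated above 0 in 8 of 9 pairs of arrays of 1 set (r from -0.30 to 0.58) and in 6 of 18 pairs of different sets, and a model with the set as a block is given beside each gene whose call it changed. The dyes were not swapped on any array, and a dye effect of a probe would remain in its ratio to 120 days.

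Cell type markers set some arrays of a day apart from the others. For 14 macrophage and monocyte markers, replicates 2 and 3 of 30 days had median log2 ratios to 120 days of 2.48 and 1.91, and replicate 1 of 90 days had 2.21. On the other 6 arrays it ran from -1.71 to 0.56. The median Cy5 level (log2) of these markers was 12.90, 13.19 and 13.11 on the 3 arrays and 8.34 to 11.58 on the other 6, and all 14 were above background in Cy5 on the 3 arrays and on 4 of the other 6. The median of 13 granulosa cell markers was -1.67, -0.64 and -1.35 on these same 3 arrays and lay between 0.24 and 1.89 on the other 6. In Cy5, 10 to 13 of the 13 granulosa markers were above background on every array, while their median level (log2) was 7.75, 8.05 and 8.13 on the 3 arrays and 11.15 to 13.02 on the others. In bulk RNA, fewer cells of a type and less RNA per cell cannot be told apart.

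The authors' table of normalised values raised a doubt about which file belongs to which day. Of its 9 columns 5 matched the ratios of an array at r above 0.8, 0 matched the array of the same name, and 3 matched an array of another day: the columns of 30 days replicates 1 and 3 matched the arrays of 60 days replicates 1 and 2, and the column of 60 days replicate 2 matched the array of 90 days replicate 3. The column of 60 days replicate 3 correlated at -0.77 with the array of that name. The 4 arrays with no matching column were those of 30 days and replicate 3 of 60 days, so the day of these 4 could not be checked. The arrays are named here as GEO records their files. Those called in doubt are the 3 that matched a column of another day. Without the 3 arrays in doubt, 1 array of 60 days remained and 0 of the 37 genes passed in any comparison.

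**Figure D1:**
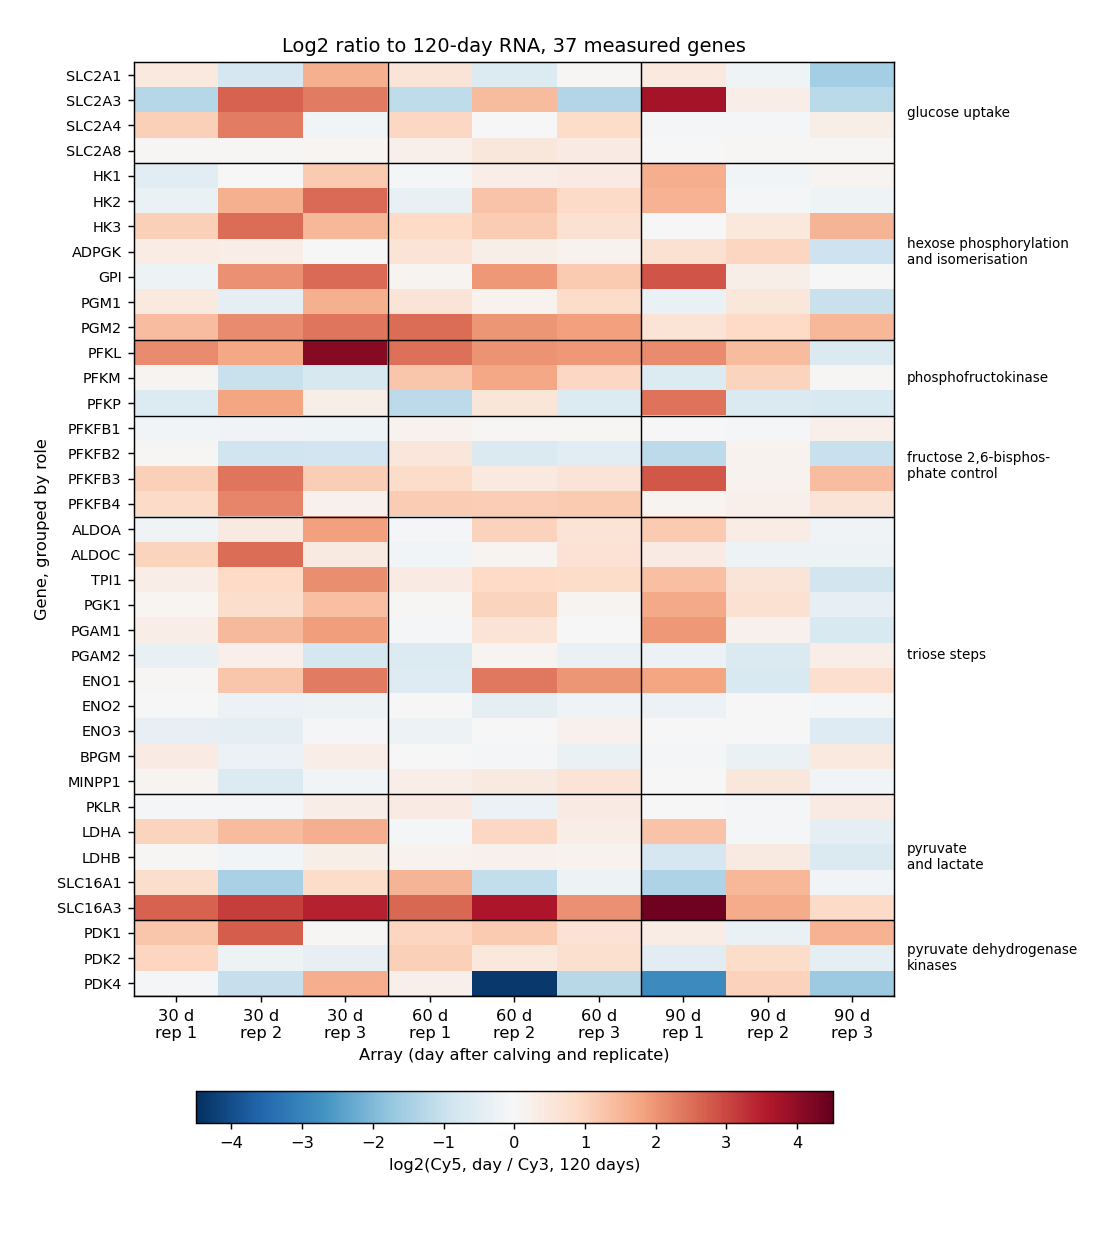
Heat map of the log2 ratio to 120-day RNA (colour) of the 37 measured genes (rows, grouped by role) on the 9 arrays (columns). SLC16A3, PGM2, PFKFB3, PFKFB4 and SLC2A8 are above 0 on all 9 arrays, while PDK4, SLC16A1 and SLC2A3 are strongly positive or negative on different arrays of the same day.

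Against 120 days 5 genes were higher at 60 days: the phosphofructokinases PFKL and PFKM, the lactate exporter SLC16A3, the phosphoglucomutase PGM2 and, by little, the hexose transporter SLC2A8. At 60 days 5 of 37 genes passed (13.5%), all 5 higher, where 13.2% of all genes passed in either direction, 6.10% higher and 7.08% lower. At 30 days PGM2 alone passed (2.70% of the 37), where 0.287% of all genes did. Unadjusted limma p-values below 0.05 were held by 13 of 37 genes at 30 days (21.0% of all genes) and by 8 of 37 at 60 days (31.2% of all genes). At 90 days 0 of 37 passed, where 0.00700% of all genes did, and 3 of 37 had an unadjusted limma p below 0.05, where 11.5% of all genes had one. The share of the 37 genes at 60 days is thus close to that of all genes in either direction. Without the 3 arrays of high macrophage markers, PGM2, SLC16A3 and PFKFB4 passed at 60 days (3 of 37, where 2.35% of all genes did), and 0 of 37 passed at 30 and 90 days (0% of all genes at each). With the 120-day RNA set as a block, 3, 6 and 1 of 37 passed at 30, 60 and 90 days, where 3.14%, 18.2% and 0.658% of all genes did.

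Most of the 37 genes lay above 0 at each day. The median log2 ratio of the 37 genes was 0.55 at 30 days, 0.38 at 60 days and 0.24 at 90 days, against -0.01, -0.05 and -0.01 for all genes. Above 0 were 30, 28 and 26 of the 37 (81.1%, 75.7% and 70.3%), against 47.8%, 44.5% and 48.3% of all genes. The median at 30 days moved with single arrays: it was 1.03 without replicate 1 and 0.13 without the 3 arrays of high macrophage markers, which leaves replicate 1 alone. Array by array, the medians of the 37 genes were 0.13, 0.39 and 0.82 on day 30, 0.23, 0.48 and 0.39 on day 60 and 0.32, 0.20 and -0.14 on day 90.

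All 3 ratios were above 0 in 14 of 37 genes at 30 days, 19 at 60 days and 6 at 90 days, where 20.1%, 25.2% and 15.6% of all genes had this. They were all below 0 in 2, 1 and 1 genes, where 27.1%, 32.3% and 17.6% of all genes had this. On all 9 arrays 5 of 37 genes were above 0 (5.63% of all genes) and 0 of 37 were below 0 (6.93% of all genes). These 5 were SLC16A3, PGM2, PFKFB3, PFKFB4 and SLC2A8. The 9 ratios share 3 reference RNAs and a fixed dye.

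**Figure D2:**
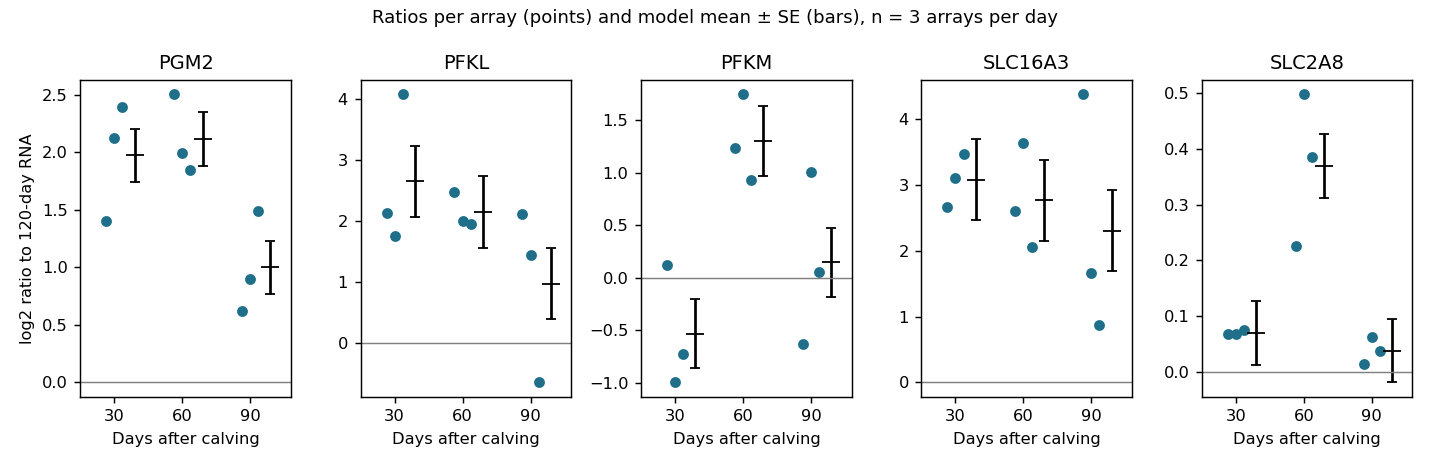
Log2 ratio to 120-day RNA (vertical axis) by days after calving (horizontal axis) for the 5 genes that passed, with 1 point per array and the model mean ± SE beside them, 3 arrays per day. PFKM and SLC2A8 are highest at 60 days, PGM2 is high at 30 and 60 days, and PFKL and SLC16A3 spread widely at 90 days.

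Among the transporters of glucose uptake, SLC2A8, a hexose transporter held largely on inner membranes, was the member that passed at 60 days, with a small ratio. Its log2 ratios were 0.23, 0.50 and 0.39 on replicates 1, 2 and 3 of 60 days. The 30-day arrays gave 0.07, 0.07 and 0.07, the 90-day arrays 0.01, 0.06 and 0.04, so that 60 days stood above both other days without overlap. At 60 days SLC2A8 was 1.29-fold higher than at 120 days (log2 0.37 ± 0.06 SE, limma adjusted p = 0.0118). The spot was close to background: Cy5 exceeded the controls on 7 of 9 arrays and Cy3 on 6 of 9, and at 30 days each channel did so on 1 of 3. The call ended without 60 days replicate 3 and with the array's granulosa median as a covariate (0.33, adjusted p = 0.0922).

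SLC2A3, a transporter with high affinity for glucose that leukocytes also carry, varied within each day as widely as between days. Its ratios were -1.30, 2.67 and 2.33 on day 30, -1.13, 1.42 and -1.31 on day 60 and 3.75, 0.29 and -1.22 on day 90. The 3 highest belonged to the 3 arrays of high macrophage markers, and the model means of 1.23, -0.34 and 0.94 each had an SE of 1.11. SLC2A1, the basal transporter of most cells, had means of 0.43, -0.01 and -0.43 at 30, 60 and 90 days (SE 0.50). SLC2A4, the transporter that insulin recruits in muscle and fat, had means of 1.08, 0.60 and 0.04 (SE 0.40), and of these 3 genes 0 passed.

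Of the enzymes that phosphorylate and rearrange hexoses, PGM2 was high at 30 and 60 days. PGM2 belongs to the phosphoglucomutases, which move a phosphate between positions of a sugar, and is known mainly as a phosphopentomutase. Its log2 ratios were 1.40, 2.13 and 2.39 on day 30, 2.51, 2.00 and 1.85 on day 60 and 0.62, 0.90 and 1.49 on day 90. All 9 were above 0, and the 60-day ratios lay above all of those at 90 days. The gene was 3.93-fold higher at 30 days (log2 1.97 ± 0.23 SE, limma adjusted p = 0.0425) and 4.34-fold at 60 days (2.12 ± 0.23, adjusted p = 0.00788). At 90 days the mean of 1.00 ± 0.23 did not pass (adjusted p = 0.305).

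In the channels themselves, the 120-day level of PGM2 ran only from 9.82 to 10.47 over the 9 arrays. Its Cy5 level ran from 11.33 to 12.87 at 30 days, from 12.04 to 12.33 at 60 days and from 10.60 to 11.79 at 90 days. The call at 60 days held without any single array and without the 3 arrays of high macrophage markers (adjusted p = 0.0367). It was lost with the granulosa marker median as a covariate (2.24, adjusted p = 0.0594), with only the 60-day arrays in the model (2.12, adjusted p = 0.0554) and without the 3 arrays of doubtful day (1.85, adjusted p = 0.159). The call at 30 days held only without 30 days replicate 1 and was lost without each of the other 8 arrays, with values between 1.76 and 2.26. Without the 3 arrays of high macrophage markers, which leaves replicate 1 of 30 days, it was 1.40 (adjusted p = 0.695).

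The hexokinases trap glucose in the cell, and HK3, an isoform known from leukocytes, was above 0 on 8 of 9 arrays. Its ratios were 1.08, 2.50 and 1.50 on day 30, 0.90, 1.13 and 0.69 on day 60 and -0.03, 0.46 and 1.53 on day 90. HK3 had means of 1.69 ± 0.33 SE at 30 days and 0.91 ± 0.33 at 60 days, neither of which passed (limma adjusted p = 0.0988 and 0.11). It did pass at 30 days with no background correction and at 60 days with median centring in place of loess. HK2, the isoform that insulin and low oxygen are known to raise, had 1.28, 0.61 and 0.42 at 30, 60 and 90 days (SE 0.59), and HK1, the isoform of most cells, 0.22, 0.19 and 0.54 (SE 0.39). ADPGK, a glucokinase that uses ADP, had 0.21, 0.34 and 0.24 (SE 0.32). GPI, which turns glucose 6-phosphate into fructose 6-phosphate, had 1.46, 1.09 and 1.04 (SE 0.70), and PGM1, which links glycogen to glucose 6-phosphate, 0.55, 0.52 and -0.26 (SE 0.40). Other probes of HK2 lay between -0.26 and 0.08 at all days, so the ratios of HK2 rest on its brightest probe. A dimmer probe of GPI had smaller means of 0.44, 0.39 and 0.26 (SE 0.12).

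Phosphofructokinase, the main control point of glycolysis, gave 2 of the 5 calls at 60 days, and its isoforms differed in their pattern. PFKM, the isoform named for muscle, had ratios of 1.24, 1.75 and 0.93 on day 60, 0.12, -0.997 and -0.72 on day 30 and -0.63, 1.01 and 0.06 on day 90. The 60-day ratios stood above all of those at 30 days and overlapped those at 90 days. PFKM was 2.47-fold higher at 60 than at 120 days (log2 1.30 ± 0.33 SE, limma adjusted p = 0.0417), with means of -0.53 ± 0.33 at 30 days and 0.15 ± 0.33 at 90 days.

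The 120-day level of PFKM was steady, from 9.28 to 9.57 on all 9 arrays, while its Cy5 level ran from 8.34 to 11.05. Its Cy5 level was 10.69, 11.05 and 10.46 on day 60, 9.58, 8.34 and 8.78 on day 30 and 8.65, 10.58 and 9.58 on day 90. The 3 lowest belonged to the 3 arrays with the lowest granulosa marker medians, and the 60-day arrays held 3 of the 4 highest granulosa medians. With the granulosa marker median as a covariate, PFKM at 60 days was 0.61 (limma adjusted p = 0.187). Its call was lost without any 1 of the arrays of 60 days, replicates 2 and 3 of 30 days or replicate 3 of 90 days, with values between 1.08 and 1.49.

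PFKL, the isoform named for liver, had ratios of 2.48, 2.01 and 1.96 at 60 days, with 2.14, 1.75 and 4.09 at 30 days and 2.13, 1.44 and -0.64 at 90 days. It was 4.45-fold higher at 60 than at 120 days (log2 2.15 ± 0.58 SE, limma adjusted p = 0.0496). The mean at 30 days was larger, at 2.66 ± 0.58, but did not pass (adjusted p = 0.113), and the 3 ratios of 60 days lay within the range of those at 30 days. The Cy3 level of PFKL was 10.95 to 12.03, and Cy5 fell below it only on replicate 3 of 90 days. Its call held without replicate 3 of 30 days or of 90 days and was lost without each of the other 7 arrays, at values of 1.99 to 2.25. It was also lost with the 120-day RNA set as a block (adjusted p = 0.0796) and with the granulosa covariate (2.48, adjusted p = 0.145). PFKP, the isoform named for platelets, had means of 0.49, -0.41 and 0.38 (SE 0.71), with its highest ratios on replicate 1 of 90 days (2.46) and replicate 2 of 30 days (1.79).

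**Figure D3:**
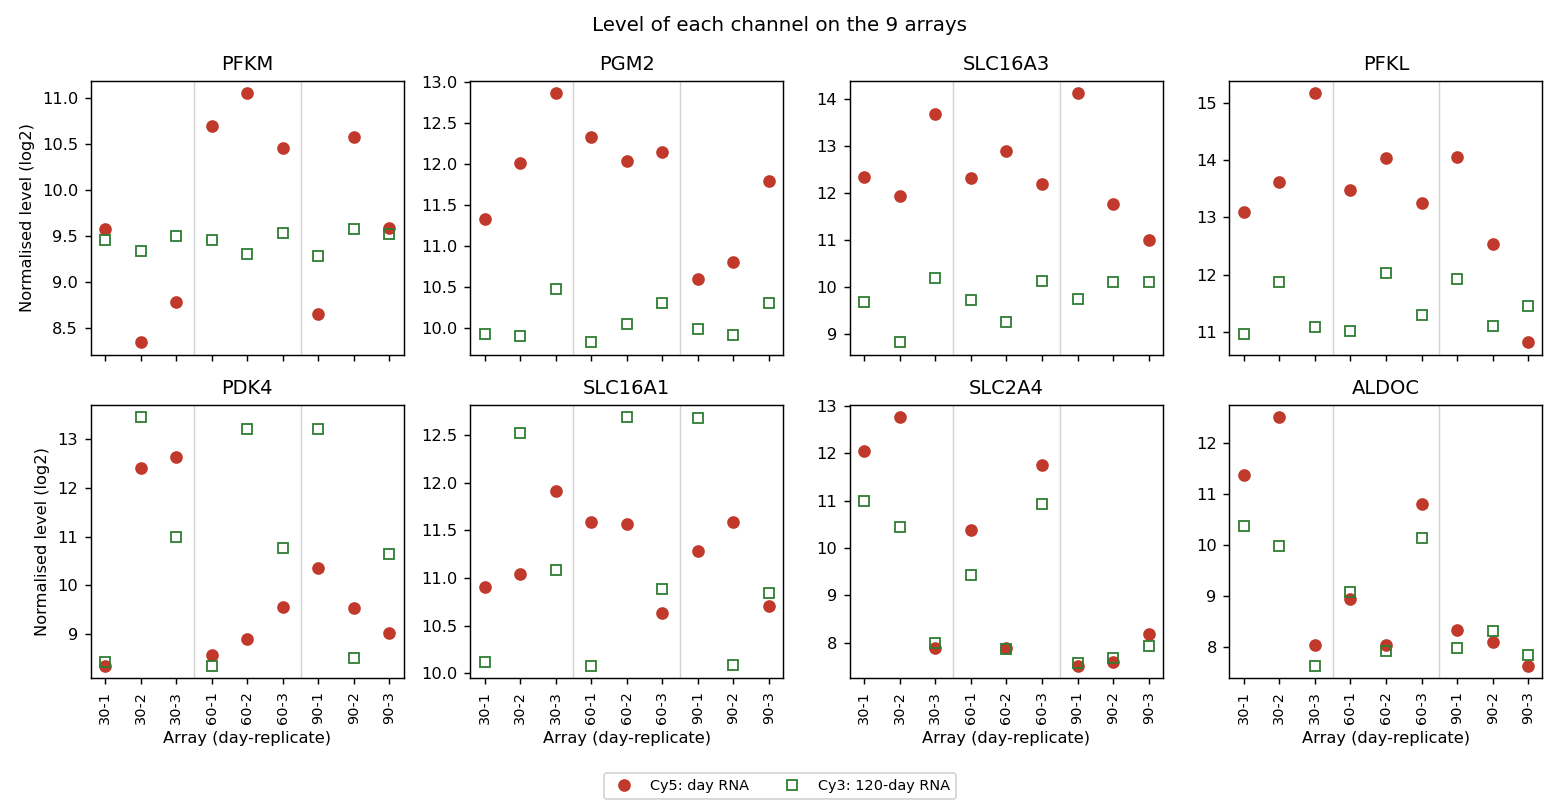
Normalised log2 level of the Cy5 channel (filled circles, day RNA) and the Cy3 channel (open squares, 120-day RNA) of 8 genes on the 9 arrays, labelled by day and replicate. The 120-day level of PFKM stays within 9.28 to 9.57 while that of PDK4 takes 3 separate values, and in SLC2A4 and ALDOC both channels are high on the same arrays.

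The PFKFB enzymes make and break fructose 2,6-bisphosphate, the signal that speeds up phosphofructokinase, and 0 of the 4 passed at any day in the model of all arrays. PFKFB4 had close ratios of 1.14, 1.10 and 1.16 on day 60, beside 0.86, 2.20 and 0.20 on day 30 and 0.13, 0.23 and 0.57 on day 90. The mean of 1.14 ± 0.32 SE at 60 days lay just outside the threshold (limma adjusted p = 0.054), and the 60-day ratios were above all of those at 90 days. The 120-day spot of PFKFB4 was above background on 1 of 3 arrays of 60 days and on 0 of 3 of 90 days.

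PFKFB3, the isoform with the strongest kinase activity, had means of 1.54 at 30 days, 0.62 at 60 days and 1.45 at 90 days (SE 0.47), and its ratios at 30 days (1.08, 2.42 and 1.12) lay above those at 60 days (0.82, 0.46 and 0.60). PFKFB1, the isoform of liver and muscle, was on the other side of 0 at 30 days than at 60 days: its ratios were -0.14, -0.15 and -0.18 on day 30, 0.14, 0.06 and 0.04 on day 60 and 0.03, -0.06 and 0.22 on day 90. These are small numbers on a spot near background, above the controls on 8 of 9 arrays in each channel. PFKFB2, the isoform named for heart, had means of -0.57, -0.20 and -0.67 (SE 0.34). With the 120-day RNA set as a block PFKFB2 passed, lower, at 30 days (limma adjusted p = 0.0293) and at 90 days (adjusted p = 0.0362), against 0.356 and 0.487 without the block.

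In the triose steps 0 of 11 genes passed at any day in the model of all arrays. The genes for the central enzymes had means above 0 at 30 days that did not pass: TPI1, which interconverts the trioses, had a mean of 1.10 ± 0.44 SE, PGAM1, a phosphoglycerate mutase, 1.21 ± 0.49, ENO1, the main enolase, 1.22 ± 0.70, PGK1, which makes the first ATP, 0.74 ± 0.40, and ALDOA, the aldolase of most tissues, 0.70 ± 0.41. Their limma adjusted p at 30 days ran from 0.225 to 0.35. At 60 days the same genes had 0.70, 0.19, 1.27, 0.39 and 0.54, and at 90 days 0.36, 0.49, 0.63, 0.67 and 0.45. A second, dimmer probe of ENO1 passed at 60 days (1.22 ± 0.19, adjusted p = 0.0116), where the brightest probe had nearly the same mean with a wider spread (1.27 ± 0.70, adjusted p = 0.255). With the 120-day RNA set as a block, the brightest probe of ENO1 passed at 60 days (adjusted p = 0.0475).

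ALDOC, the aldolase named for brain, had ratios of 0.99, 2.51 and 0.41 on day 30, -0.14, 0.13 and 0.66 on day 60 and 0.36, -0.22 and -0.22 on day 90. The 30-day ratios of ALDOC lay above those of 90 days and overlapped those of 60 days, and its mean of 1.30 ± 0.37 SE at 30 days did not pass (limma adjusted p = 0.159). MINPP1, a phosphatase of inositol phosphates that can also act on 2,3-bisphosphoglycerate, had ratios of 0.13, -0.60 and -0.12 on day 30, 0.29, 0.39 and 0.60 on day 60 and -0.01, 0.50 and -0.14 on day 90. Its 60-day ratios were above its 30-day ratios (mean at 60 days 0.43 ± 0.16, adjusted p = 0.119). The muscle and nerve isoforms PGAM2, ENO3 and ENO2 and the mutase BPGM of red blood cells stayed between -0.30 and 0.13 in their means at all days.

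At the end of the pathway, SLC16A3, the monocarboxylate transporter that exports lactate from glycolytic cells, had the largest mean of all 37 genes at each day. Its ratios were 2.66, 3.10 and 3.47 on day 30, 2.60, 3.63 and 2.06 on day 60 and 4.38, 1.66 and 0.88 on day 90. All 9 lay well above 0, and the 3 days overlapped. SLC16A3 was 6.79-fold higher at 60 than at 120 days (log2 2.76 ± 0.62 SE, limma adjusted p = 0.0293). At 30 days its mean was 3.08 ± 0.62 (adjusted p = 0.1) and at 90 days 2.30 ± 0.62 (adjusted p = 0.315), and neither passed. With the 120-day RNA set as a block, the 30-day value passed (adjusted p = 0.0478).

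The 120-day level of SLC16A3 ran from 8.83 to 10.20, and its Cy5 level was at least 10.99 on every array. The highest Cy5 levels were on replicate 1 of 90 days (14.11) and replicate 3 of 30 days (13.67), both of high macrophage markers. On the third array of high macrophage markers, replicate 2 of 30 days, SLC16A3 had 11.93, below replicate 1 of 30 days and every array of 60 days. Without the 3 arrays of high macrophage markers its 60-day ratio was 2.76 and still passed (adjusted p = 0.0488), while PFKL, PFKM and SLC2A8 no longer did (adjusted p = 0.0744, 0.0731 and 0.0865). With the granulosa covariate SLC16A3 did not pass at 60 days (adjusted p = 0.0697). Its call was also lost without replicate 3 of 30 days or any 1 array of 60 days, at values of 2.33 to 3.11 over all arrays left out.

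SLC16A1, the monocarboxylate transporter that moves lactate and pyruvate either way, had means of 0.04, 0.05 and -0.01 (SE 0.71), with single ratios from -1.47 to 1.51. LDHA, the subunit that favours lactate, had ratios of 0.99, 1.42 and 1.62 on day 30, -0.10, 0.95 and 0.28 on day 60 and 1.27, -0.08 and -0.41 on day 90. The 30-day ratios of LDHA lay above those of 60 days (mean at 30 days 1.34 ± 0.33 SE, limma adjusted p = 0.136), and its second probe gave 1.32 ± 0.37. On both probes the Cy5 spots of replicates 1 and 3 of 30 days were saturated at the median pixel, so that the 30-day ratios of LDHA are not exact. LDHB, the subunit that favours pyruvate, stayed between -0.12 and 0.26 on all arrays of 30 and 60 days and had -0.76, 0.39 and -0.65 at 90 days. PKLR, the pyruvate kinase of liver and red blood cells, had means of 0.05, 0.16 and 0.10 (SE 0.15).

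The kinases of pyruvate dehydrogenase, which close the way from pyruvate into the mitochondrion, did not pass at any day in the model of all arrays. PDK1, a kinase that low oxygen is known to raise, had means of 1.34, 0.92 and 0.53 at 30, 60 and 90 days (SE 0.51), with smaller means on its other probes. PDK2, a kinase of most tissues, had 0.12, 0.76 and -0.03 (SE 0.33), and its 60-day value passed with the 120-day RNA set as a block (limma adjusted p = 0.0268, against 0.155 without it). PDK4, known to rise with fasting and fatty acid use, had 0.17, -1.78 and -1.16 (SE 1.01), from ratios of -0.08, -1.05 and 1.63, then 0.23, -4.33 and -1.23, then -2.87, 1.04 and -1.64. Its ratios spanned more than those of any other of the 37 genes at 60 days.

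The 120-day level of PDK4 differed between the 3 sets of arrays. It was 8.42 ± 0.08 (SD, n = 3) in set A, 13.30 ± 0.13 in set B and 10.81 ± 0.18 in set C, a range of 4.88. SLC16A1 had 10.10 ± 0.02, 12.63 ± 0.09 and 10.94 ± 0.13 in the same order, a range of 2.53, and ENO1 had 12.92 ± 0.13, 10.84 ± 0.17 and 10.74 ± 0.04, a range of 2.18. The 120-day means of the 3 sets differed by more than 1 in 14 of the 37 genes (37.8%), against 16.7% of all genes. For these genes the ratio to 120 days was taken against a 120-day level that differed between the sets. HK3 and PFKFB3 are among them, but their 120-day level also varied within sets, with SDs up to 1.06 and 1.59.

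In SLC2A4, PFKFB3, ALDOC and HK3 the 120-day level also varied within sets, by an SD above 1 in at least 1 set, which 10.8% of the 37 genes and 1.82% of all genes did. On their arrays both channels moved together. SLC2A4 had Cy5 levels of 12.05, 12.76 and 7.88 on the arrays of 30 days, 10.37, 7.90 and 11.76 on those of 60 days, and 7.51, 7.59 and 8.19 on those of 90 days. Replicates 1 and 2 of 30 days had Cy3 levels of 10.98 and 10.45, and replicates 1 and 3 of 60 days 9.43 and 10.92, where Cy5 was high too, and lower on the other 5 arrays. The same 4 arrays held the highest values of both channels in ALDOC. The cause was not tested.

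The ratios of 6 genes were higher on all 3 arrays of high macrophage markers than on any of the other 6 arrays: SLC2A3, GPI, HK2, TPI1, PGAM1 and LDHA (16.2% of the 37, where 7.99% of all genes did so). PGAM1, for example, lay between 1.47 and 1.96 on these 3 arrays and between -0.68 and 0.61 on the other 6. Only PFKM was lower on all 3 than on any other array (2.70% of the 37, where 4.58% of all genes were). The 3 arrays comprise replicates 2 and 3 of 30 days, so that these genes and the macrophage markers moved together in the 30-day means. Replicate 2 of 30 days and replicate 1 of 90 days, like replicate 2 of 60 days, carried the reference RNA of set B. That reference had the lowest level of GPI (10.33, against 11.75 in set A and 10.70 in set C). It was also lowest in SLC2A3 (11.08, against 12.76 and 12.53) and in LDHA (14.20, against 14.82 and 14.38). HK2 and TPI1 were instead lowest in set C (7.95 and 13.56, against 8.28 and 14.26 in set B). PGAM1 was nearly equal in sets B and C (13.60 in each). In LDHA the highest ratio on the other 6 arrays was 0.99, from a saturated spot of 30 days replicate 1, against at least 1.27 on the 3. The place of LDHA is thus uncertain. The part of macrophages and of the reference RNA in these ratios was not tested.

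**Figure D4:**
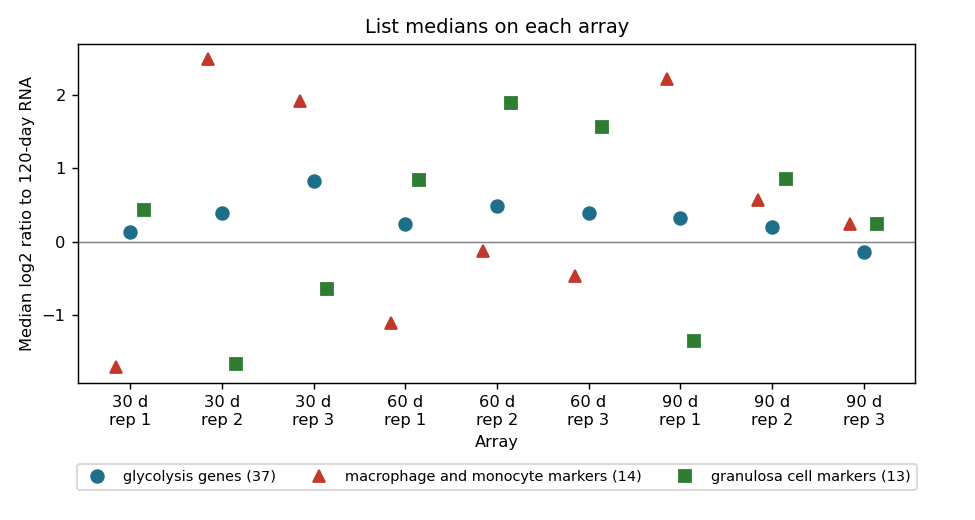
Median log2 ratio to 120-day RNA (vertical axis) of the 37 glycolysis genes (circles), 14 macrophage and monocyte markers (triangles) and 13 granulosa cell markers (squares) on each of the 9 arrays (horizontal axis). Macrophage medians of 2.48, 1.91 and 2.21 stand on the 3 arrays where the granulosa medians are below 0, while the glycolysis medians stay between -0.14 and 0.82.

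Between the 3 early days, no difference in any of the 37 genes passed after adjustment over all probes. By limma 0 of 37 genes and 0% of all genes passed for 30 against 60 days, 60 against 90 days, 30 against 90 days and any difference among the 3 days. At an unadjusted p below 0.05 there were 4, 3, 3 and 4 of the 37 genes, where 11.8%, 10.1%, 5.73% and 9.79% of all genes stood. These contrasts share arrays, and a fixed dye effect cancels in them. The median difference over the 37 genes was 0.16 for 30 minus 60 days, 0.18 for 60 minus 90 days and 0.30 for 30 minus 90 days. These medians moved with single arrays, from -0.09 to 0.43, from 0.06 to 0.35 and from 0.09 to 0.69 in the same order when each array was left out. The median of 30 minus 60 days turned to -0.03 with median centring in place of loess, -0.10 without the 3 arrays of high macrophage markers and -0.22 with the granulosa covariate.

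The largest such difference with an unadjusted p below 0.05 was that of PFKM, at -1.84 ± 0.47 SE for 30 minus 60 days on the log2 scale (95% interval -2.93 to -0.74, limma adjusted p = 0.342). PFKM also stood 1.16 ± 0.47 higher at 60 than at 90 days (adjusted p = 0.495). PGM2 was 1.12 ± 0.33 higher at 60 than at 90 days (adjusted p = 0.428) and 0.97 ± 0.33 higher at 30 than at 90 days (adjusted p = 0.821). SLC2A8 was 0.33 ± 0.08 higher at 60 than at 90 days (adjusted p = 0.385). ALDOC was 1.33 ± 0.52 higher at 30 than at 90 days (adjusted p = 0.821). These differences did not pass, and they are given as values.

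Taken by single arrays, the 30-day ratios were all above the 60-day ratios in PFKFB3 and LDHA (2 of 37, where 10.3% of all genes did so) and all below in SLC2A8, PFKM, PFKFB1 and MINPP1 (4 of 37, 9.16% of all genes). The 60-day ratios were all above those of 90 days in SLC2A8, PGM2 and PFKFB4 (3 of 37, 6.42%) and below in 0 of 37 (10.5%). The 30-day ratios were all above those of 90 days in SLC2A8 and ALDOC (2 of 37, 5.14%) and all below in PFKFB1 (1 of 37, 6.92%).

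Routes that branch from glycolysis, and the hypoxia-inducible factor, were read from 8 lists of their genes. At 60 days 8 of their 102 genes passed (7.84%), 5 higher and 3 lower, where 13.2% of all genes passed. At 30 and 90 days 0 genes of these lists passed. At 60 days, of 9 genes of the pentose phosphate pathway 0 rose and 1 fell: TALDO1, the transaldolase, by 1.17 ± 0.26 SE (limma adjusted p = 0.0306), from ratios of -1.07, -0.91 and -1.52. Its ratios at 30 days were -1.13, 0.03 and 0.11. The list median at 60 days was -0.26.

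Of 10 genes of pyruvate dehydrogenase and the mitochondrial pyruvate carrier, 1 rose and 1 fell at 60 days. DLAT, the acetyltransferase core of pyruvate dehydrogenase, rose by 0.75 ± 0.20 SE (limma adjusted p = 0.0463), and PDPR, a regulator of the phosphatase that switches the complex on, fell by 0.32 ± 0.07 (adjusted p = 0.0287). Of 14 other hexose and monocarboxylate transporters 1 rose, SLC16A5 by 0.56 ± 0.11 (adjusted p = 0.0224), and 1 fell, SLC2A11, for which no size is given since 0 of 3 of its 60-day spots exceeded background. Of 17 glycogen genes 1 rose and 0 fell, EPM2A, the phosphatase laforin, by 0.45 ± 0.11 (adjusted p = 0.0391). Of 13 genes of gluconeogenesis and further isoforms 1 rose and 0 fell, G6PC, the glucose 6-phosphatase of liver (adjusted p = 0.0389), with no size since 0 of 3 of its 120-day spots exceeded background. Of 10 genes of the glycerol phosphate and malate-aspartate shuttles 0 passed.

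The hypoxia-inducible factor, which is known to raise many glycolysis genes, was followed in 2 lists. Of 10 genes of the factor and its regulators 1 rose and 0 fell at 60 days: EGLN2, a prolyl hydroxylase that marks the factor for breakdown, by 1.04 ± 0.22 SE (limma adjusted p = 0.0257). Of 19 further target genes 0 passed at any day in the model of all arrays, with list medians of 0.46, 0.16 and 0.13 at 30, 60 and 90 days. Of these targets 16, 12 and 14 of 19 lay above 0. Without the 3 arrays of high macrophage markers, where fewer of all genes passed, the 60-day calls of TALDO1, DLAT, PDPR, SLC16A5, SLC2A11, G6PC and EGLN2 were lost. In that fit other genes passed in the gluconeogenesis and glycogen lists and among the further targets.

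Beside the 60-day results, the cell type markers stood as follows. Of 13 granulosa markers 3 rose (AMH, AMHR2 and ESR2), which is 23.1% where 6.10% of all genes were higher, and the other 10 did not pass. Of 14 macrophage markers 0 passed. Of 16 lymphocyte markers 6 fell (37.5%), of 11 neutrophil markers 3 (27.3%) and of 17 epithelial markers 3 (17.6%), where 7.08% of all genes fell, and 0 rose in these lists. Without the 3 arrays of high macrophage markers 1 granulosa marker rose, and 6 lymphocyte, 1 neutrophil and 0 epithelial markers fell. Of 7 red blood cell markers 1 rose (EPB42), and of 10 theca and stromal and 8 endothelial markers 0 passed. At 30 and 90 days 0 markers of any of these lists passed. The part of these cell types in the 60-day values was not tested beyond the granulosa covariate and the fit without the 3 arrays.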

How the data were processed

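The deposited array files hold spot intensity values in 2 colours, per the file headers as pixel means and medians at 635 and 532 nm, which the authors had not normalised. Per the labels, Cy5 carried the RNA of 30, 60 or 90 days and Cy3 that of 120 days. RNA was amplified before labelling, so ratios compare amplified RNA. The authors' deposited series matrix holds log2 values, with no account of how they were made in the sources used here, and served only to check the file names.

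Spot means (45220 spots, 43794 probes) were corrected by normexp (offset 50) and normalised by loess within arrays in limma 3.58.1 (R 4.3.3, data.table, version 1.17.8). Figures were drawn in Python 3.11.15 with pandas 2.3.3 and version 3.10.9 of matplotlib. Flagged spots were left out. A probe entered where at least 3 arrays showed it, in Cy5 or Cy3, more than 2 SD over the mean of 153 negative controls (38823 probes). The platform annotation gave a symbol for 21790 probes. A model with 1 coefficient per day was fitted to all 9 arrays by lmFit and eBayes (6 residual, 1.35 prior degrees of freedom). P-values were adjusted by Benjamini-Hochberg over all probes, at a threshold of 0.05. Percentages of all genes that passed are over 14281 genes. Percentages that need a value on every array counted are over the 14209 to 14262 genes that had them. Channel levels are log2 after Aquantile. The number of arrays limits the precision. The fit was tested on simulated data.

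The members, lists, naming rule and tests were chosen with earlier results of these data known. Each member is named; values per array are given for the 5 that passed and, up to 12, those with the smallest F p-values, and for others where a result turns on the arrays. Of other lists up to 4 genes that passed are named. The alternatives are those given in the closing section, with no filter, a filter from median and MAD of the controls, array weights, and Aquantile. The fit without the arrays of doubtful day, and the Cy5 level alone for contrasts between days, were added after seeing the data, as were the counts of genes set apart on the arrays of high macrophage markers and the list counts without those arrays. No reference sequence was used here, and no sequence is shown.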

Additional observations from a re-analysis of the deposited data

Results flagged for a closer look

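PFKFB1, the liver and muscle isoform of the enzyme that makes and breaks fructose 2,6-bisphosphate, had ratios to 120 days below 0 on all 3 arrays of 30 days and above 0 on all 3 arrays of 60 days. The difference of 30 minus 60 days was -0.24 ± 0.09 SE on the log2 scale, and its test did not pass (limma adjusted p = 0.368). It was the single gene of the 37 with all ratios of opposite sign in a pair of days. How many of all genes did so was not counted, while 9.16% of all genes had every 30-day ratio below every 60-day ratio. The PFKFB1 spot was near background.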

How the results depend on the processing

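Over the 24 alternatives run on each, all 6 calls kept their sign. PGM2 at 60 days passed in 21 of them, SLC2A8 in 17, SLC16A3 in 14, PFKM in 9, PGM2 at 30 days in 8 and PFKL in 6. The 24 include Aquantile, which leaves the loess ratios unchanged and so was not a separate check. The count of genes passing at 30 days (1) was 4 with no background correction, 3 with the 120-day RNA set as a block, and 0 with median centring in place of loess, the replicate block, the granulosa covariate, robust eBayes with a trend, only the arrays compared, the mean of all probes, without the 3 arrays of high macrophage markers and without the 3 arrays of doubtful day. The count at 60 days (5) was 2 with no background correction, 1 with median pixel signals, 2 with the replicate block (PGM2 and SLC2A8), 3 with the mean of all probes and without the arrays of high macrophage markers, and 0 with the granulosa covariate, only the arrays compared, or without the arrays of doubtful day. It was 6 with the set as a block, which gained ENO1 and PDK2 and lost PFKL. It stayed at 5 with median centring, which gained HK3 and PFKFB4 and lost PFKL and SLC2A8, and with array weights, which gained PFKFB4 and lost PFKM. The 4 genes at 30 days with no background correction were HK3, PFKL, PGM2 and SLC16A3. The count at 90 days (0) was 1 with no background correction (PGM2, higher) and 1 with the set as a block (PFKFB2, lower). Calls over all tested probes moved too. At 30 days they were 79, against 3241 with no background correction, 876 with the set as a block and 0 with the replicate block. At 60 days they were 5537, against 2633 with no background correction and 612 with median pixel signals. They were 1706 with the replicate block, 44 with the granulosa covariate and 6589 with the set as a block. At 90 days they were 1, against 766 with no background correction and 168 with the set as a block. The median at 60 days was 0.74 with median centring and 0.73 with the granulosa covariate, that at 30 days 0.13 without the arrays of high macrophage markers, and that of 30 minus 60 days -0.22 with the granulosa covariate. Leaving out each array gave 0 to 1, 1 to 4 and 0 to 0 genes at 30, 60 and 90 days and medians of 0.37 to 1.03, 0.31 to 0.44 and 0.05 to 0.24. The lower counts at 60 days were 2, 2 and 1 without replicates 1, 2 and 3 of that day. Between days 0 genes passed under every alternative. Fits with only the arrays compared, or without arrays, have fewer samples; the causes of the other shifts were not tested. The replicate numbers did not pair the samples: deviations of same-numbered arrays correlated between -0.69 and 0.51, and the positive ones were pairs of 1 set of 120-day RNA. All 6 calls were higher under loess, median centring and no background correction, and no scaling moved the median of all genes by over 0.1. Of all genes called at 30 days, 14 were higher and 27 lower (34.1% higher). With median centring these were 0 and 19, and without background correction 511 and 503 (50.4% higher). At 90 days 1 was higher and 0 lower, against 128 and 67 without background correction. Signal near background limits SLC2A8, PFKFB4, PFKFB1 and the other dim genes.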
